A study of Mus musculus with 46 samples.

Results

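The complement components and receptors followed here were 7 genes: C1qa, C1qb and C1qc, which encode the 3 chains of the recognition molecule C1q, C3, the central component, Cfp, which encodes properdin, and the receptor genes C3ar1 and C5ar1. They were taken by symbol from the count and TPM tables, where all 7 of 20999 genes were found, and none was chosen for its measured values. TPM, transcripts-per-million, is a level divided by transcript length, so it can be compared between genes. The genes lie on 5 chromosomes of the mouse build mm10, all on the minus strand. C1qa (chr4:136895916-136898844), C1qc (chr4:136889802-136892914) and C1qb (chr4:136880126-136886200) sit side by side, with start sites 5930 bp and 6714 bp apart. C3 lies at chr17:57203967-57228136, C3ar1 at chr6:122847140-122856157, C5ar1 at chr7:16246745-16259338 and Cfp at chrX:20925454-20931555. No other gene of the table overlaps any of them.

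Complement is a cascade of plasma and tissue proteins that tags particles and cell debris for uptake. C1q starts the classical pathway by binding its targets, and every pathway leads to cleavage of C3. Properdin holds together the C3-cleaving enzyme of the alternative pathway, and the receptors C3aR1 and C5aR1 sense the small fragments released from C3 and C5. Microglia, the resident macrophages of the brain, are the main source of C1q there, and microglial complement is known for its part in the removal of synapses during development.

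The study asked which programmes proliferating microglia share between settings and which depend on the setting. All cells came from male C57BL/6 mice and were sorted by CD11b, CD45 and CD44. RNA was sequenced in 5 groups of 2 libraries that the labels call independent biological replicates. Adult RNA came from untreated wild-type mice of 90 days, a group labelled Ki67-negative although these mice carried no reporter. RNA of postnatal day 8 (PND8) came from Ki67-rfp reporter mice of 8 days, sorted as Ki67-negative or Ki67-positive, where Ki67 is a protein of cycling cells. Repopulation RNA came from Ki67-rfp mice of 75 days that ate PLX5622, a CSF1R inhibitor that depletes microglia, from day 55 for 17 days and then recovered for 3 days. These cells were also sorted by Ki67, and no label separates microglia that outlived the drug from newly formed ones. H3K27ac, an acetylation of histone H3 found at promoters and enhancers in use, was mapped in 6 groups of 2 from wild-type mice whose fixed cells were stained for Ki67: adult (60 and 65 days), PND8 Ki67-negative and Ki67-positive (8 days), Ki67-negative and Ki67-positive after 4 weeks of cuprizone, a toxin that strips myelin (90 days), and Ki67-positive repopulation (90 days, PLX5622 from day 70). Cuprizone had no RNA libraries here, and Ki67-negative repopulation had no H3K27ac libraries here. Age and reporter genotype, and in repopulation also treatment, therefore changed together in the RNA comparisons with adult and cannot be told apart. Age and treatment also changed together between repopulation and PND8 RNA. The same holds for H3K27ac of the cuprizone and repopulation groups beside adult or PND8.

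Promoter sequences are shown for the genes whose H3K27ac came and went between groups (Cfp and C3) and for 3 genes with H3K27ac in every library (C1qb, C3ar1 and C5ar1). Each is the 250 bases before the start site, 5′ to 3′ along the gene, from RefSeq on GRCm38.p6. The RefSeq table held 6 of the 7 promoters, and C1qa was not among them. Capitals mark matches, on either strand, to 4 motifs: GGAAGT (the core of ETS and PU.1 sites), TGANTCA (AP-1), the interferon-stimulated response element and the NF-kB element.
Cfp, chrX:20931556-20931805, minus strand: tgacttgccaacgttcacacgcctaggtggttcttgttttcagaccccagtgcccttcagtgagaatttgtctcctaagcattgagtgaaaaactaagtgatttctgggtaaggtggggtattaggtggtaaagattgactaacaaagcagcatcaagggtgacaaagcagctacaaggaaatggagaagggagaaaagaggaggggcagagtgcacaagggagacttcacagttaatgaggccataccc
C3, chr17:57228137-57228386, minus strand: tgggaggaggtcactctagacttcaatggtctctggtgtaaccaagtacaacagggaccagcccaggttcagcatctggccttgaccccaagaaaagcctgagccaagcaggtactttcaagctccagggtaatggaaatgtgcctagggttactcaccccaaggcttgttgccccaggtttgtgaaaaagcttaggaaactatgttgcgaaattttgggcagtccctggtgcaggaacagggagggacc
C1qb, chr4:136886201-136886450, minus strand: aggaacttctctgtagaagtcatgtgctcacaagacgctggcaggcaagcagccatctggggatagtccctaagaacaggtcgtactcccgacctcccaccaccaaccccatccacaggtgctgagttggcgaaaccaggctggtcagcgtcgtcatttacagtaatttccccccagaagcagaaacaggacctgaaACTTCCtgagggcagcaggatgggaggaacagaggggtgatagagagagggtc
C3ar1, chr6:122856158-122856407, minus strand: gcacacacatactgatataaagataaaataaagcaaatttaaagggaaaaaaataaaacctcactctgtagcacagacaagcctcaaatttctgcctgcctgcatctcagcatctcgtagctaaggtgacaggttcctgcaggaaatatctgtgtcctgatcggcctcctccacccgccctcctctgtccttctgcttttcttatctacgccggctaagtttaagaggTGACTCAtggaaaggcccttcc
C5ar1, chr7:16259339-16259588, minus strand: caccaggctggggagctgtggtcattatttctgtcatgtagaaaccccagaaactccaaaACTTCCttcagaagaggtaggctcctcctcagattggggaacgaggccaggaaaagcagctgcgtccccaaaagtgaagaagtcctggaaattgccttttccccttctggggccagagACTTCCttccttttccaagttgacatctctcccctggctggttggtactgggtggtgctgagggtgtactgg
Neither Cfp nor C3 held any of the 4 motifs in this window. C1qb held the reverse of GGAAGT from 53 to 48 bases before the start, and C5ar1 held it at 190 to 185 and at 72 to 67 bases. C3ar1 held TGACTCA 22 to 16 bases before the start. C1qc, not printed, held the reverse of GGAAGT at 195 to 190 bases. Of 32851 promoters of the same length, 19.7% held GGAAGT, 6.75% TGANTCA, 2.98% the interferon-stimulated response element and 0.356% the NF-kB element. A match is only a run of letters, and binding was not measured.

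The RNA libraries held 6865903 to 10287876 counts and 13557 to 14728 detected genes. Markers of microglia summed to between 7380 and 9830 CPM (counts-per-million, scaled by TMM) in the 10 libraries. Mki67 averaged 12.2 CPM in adult, 262 and 1014 in Ki67-negative and Ki67-positive PND8 cells, and 400 and 1009 in the corresponding repopulation groups. Border macrophage markers summed to 65.2 to 80.4 CPM in adult, 611 to 861 at PND8, where Mrc1 made up most of the sum, and 26.2 to 43 in repopulation. Monocyte and neutrophil markers summed to 250 CPM in adult replicate 1, 74.7 in adult replicate 2 and at most 31.4 elsewhere. Because these are bulk libraries, fewer cells of a type and less RNA per cell cannot be told apart. Each file header also carries a code: both adult RNA libraries had a code of their own, so code and adult group cannot be told apart.

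The 7 genes covered a wide range of levels. The C1q genes stood highest, between 536 and 749 TPM over the 10 libraries. C3ar1 lay between 93.0 and 138 TPM and C5ar1 between 47.9 and 96.7 TPM. Cfp ran from 4.36 to 97.6 TPM, a 22.4-fold range over the libraries, and C3 from 0.519 to 9.06 TPM, a 17.5-fold range. By contrast the highest library exceeded the lowest by 1.21 to 1.22 times for each C1q gene, 1.48 times for C3ar1 and 2.02 times for C5ar1. In the values as counted, the variation therefore lay in Cfp and C3, and to a lesser degree in the receptors. The limit of 3 tags per position, described below, can narrow the range of the C1q genes, and C3 had as few as 13 counts in a library.

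**Figure D1:**
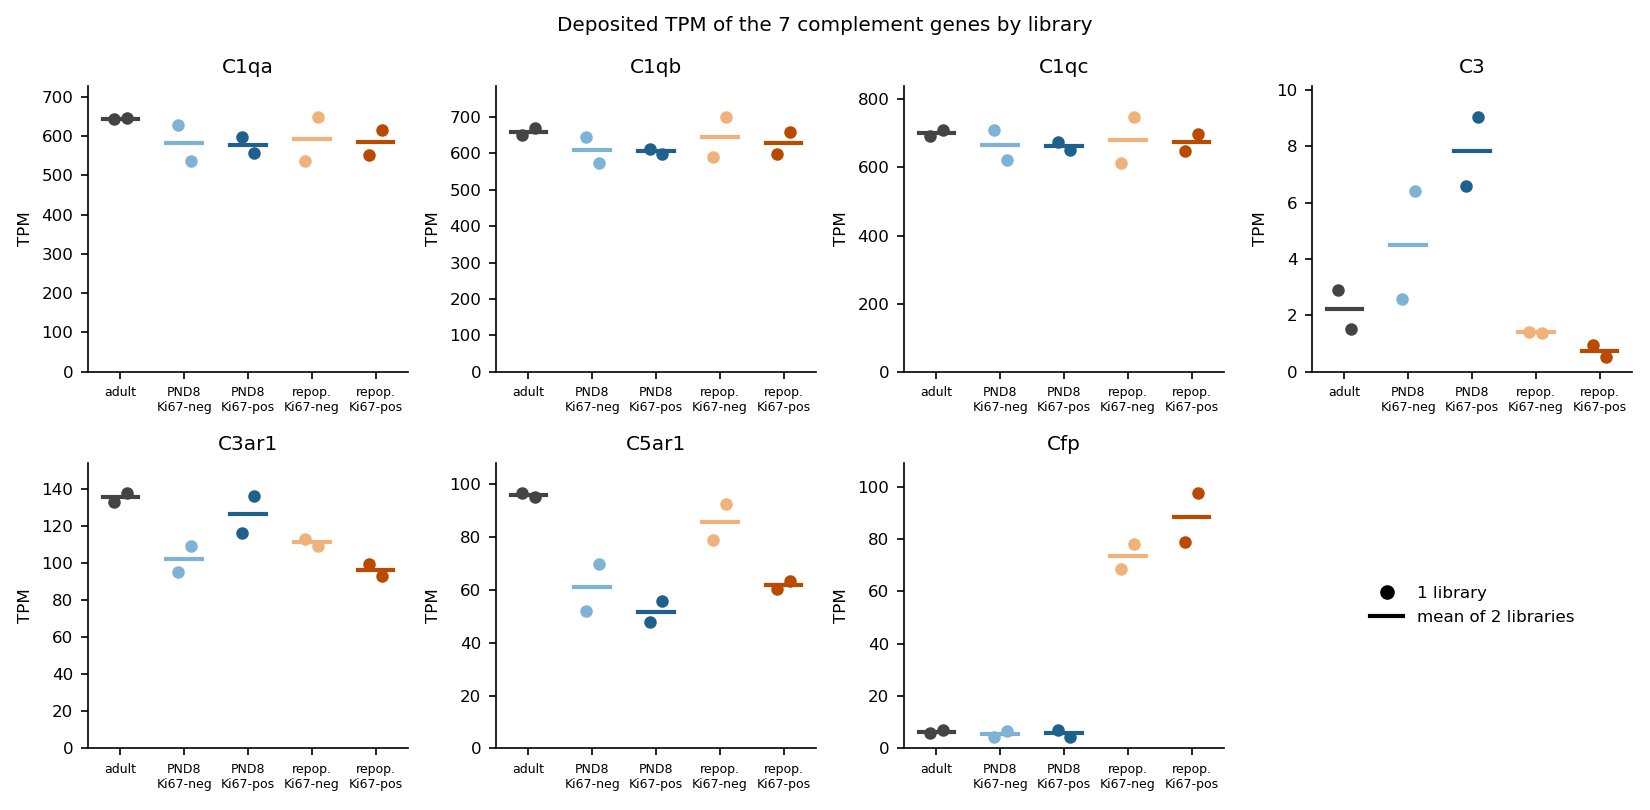
Deposited TPM of each gene, 1 panel a gene, in each RNA library on a linear axis from 0, with the 5 groups along the horizontal axis, points for libraries and a bar for the mean of 2. Cfp sits between 68.5 and 97.6 TPM in the 4 repopulation libraries and between 4.36 and 7.12 TPM in the other 6, while the C1q genes stay between 536 and 749 TPM throughout.

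All 7 genes passed the filter on low counts, as 12230 of the 20999 genes did. A gene was counted as changed when its adjusted p (edgeR's quasi-likelihood test, Benjamini-Hochberg over all tested genes) was under 0.05. Against adult, 3 of the 7 changed in PND8 Ki67-negative cells (C3 higher, C3ar1 and C5ar1 lower), beside 46.8% of all tested genes. In PND8 Ki67-positive cells 2 of 7 changed (C3 higher, C5ar1 lower), beside 49.5%. In Ki67-negative repopulation 1 of 7 changed (Cfp higher), beside 39.2%, and in Ki67-positive repopulation 4 of 7 changed (Cfp higher, C3, C3ar1 and C5ar1 lower), beside 44.9%. Repopulation against PND8 gave 3 of 7 in Ki67-negative cells (Cfp and C5ar1 higher, C3 lower), beside 36.6%, and 3 of 7 in Ki67-positive cells (Cfp higher, C3 and C3ar1 lower), beside 30.9%. Read against those shares of all genes, the number of complement genes that changed is not a result about the set. The 4 comparisons with adult share the 2 adult libraries, and the comparisons of repopulation with PND8 share libraries with them in turn.

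**Figure D2:**
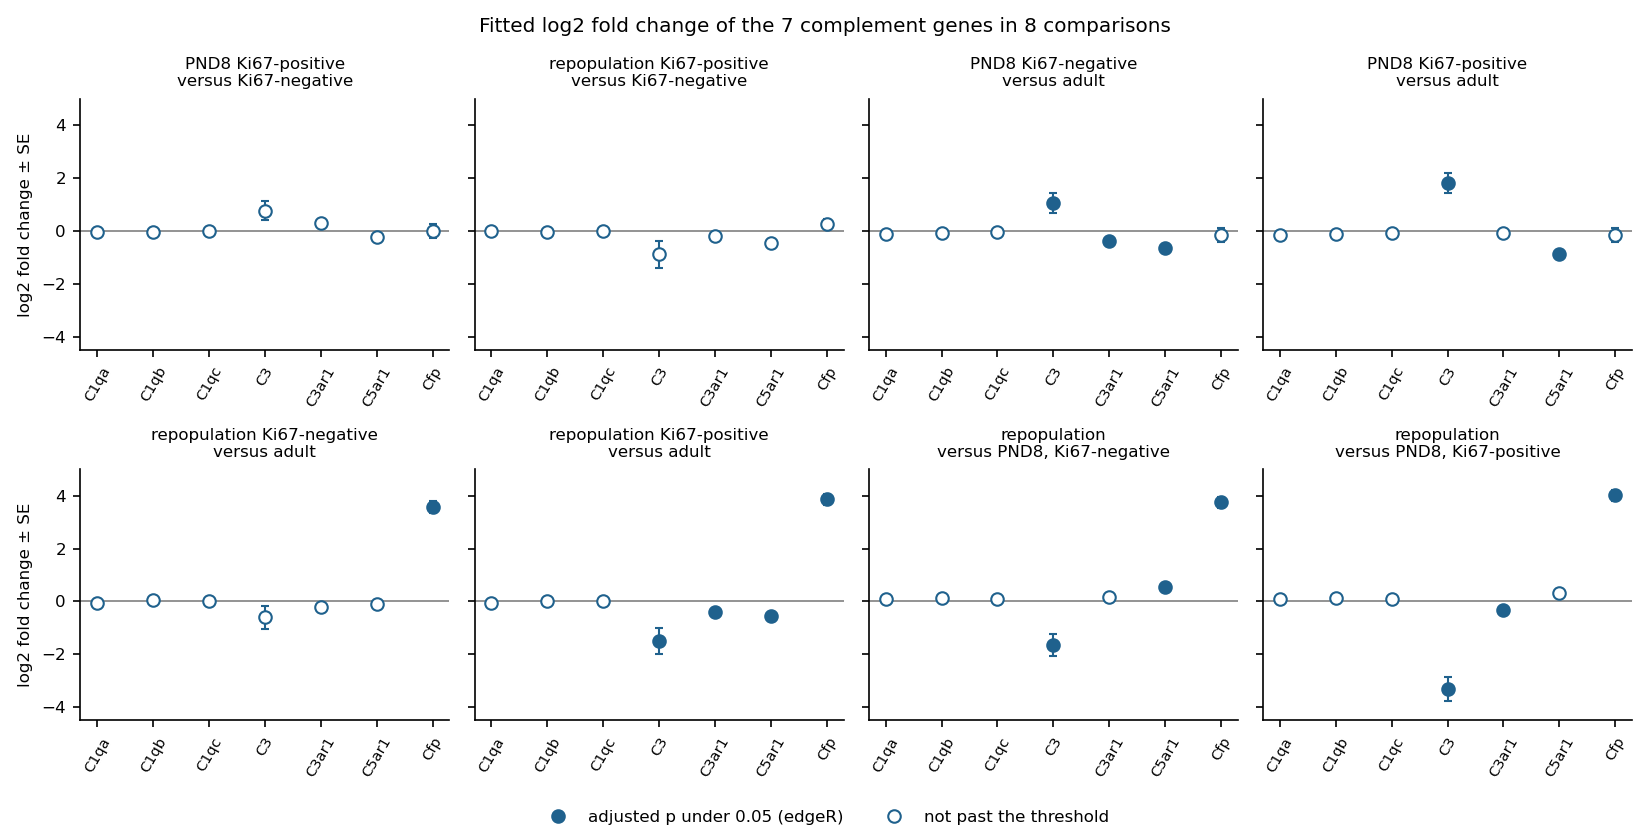
Fitted log2 fold change of each gene in 8 RNA comparisons, with bars of 1 standard error; filled points passed the test at an adjusted p under 0.05. Cfp lies between 3.58 and 4.02 in the 4 comparisons with repopulation as the numerator against adult or PND8, and the C1q genes lie between -0.15 and 0.13 in all of them.

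Cfp, which encodes properdin, rose most of the 7 genes. Its level was 5.70 and 7.12 TPM in the adult libraries, 4.49 and 6.60 in PND8 Ki67-negative, 7.04 and 4.36 in PND8 Ki67-positive, 68.5 and 78.3 in Ki67-negative repopulation, and 79.1 and 97.6 in Ki67-positive repopulation. All 4 repopulation libraries were high and all 6 others low, with no overlap. The group means were 88.3 ± 13.1 TPM (SD, n = 2) in Ki67-positive and 73.4 ± 6.95 in Ki67-negative repopulation, whose ranges did not overlap. They were 6.41 ± 1.01 in adult, 5.70 ± 1.9 in PND8 Ki67-positive and 5.55 ± 1.49 in PND8 Ki67-negative, 3 groups with overlapping ranges. The counts behind them were 594 to 780 in repopulation and 40 to 78 elsewhere.

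Against adult, Cfp rose 12-fold in Ki67-negative repopulation (log2 fold change 3.58, SE 0.218, edgeR adjusted p = 5.66e-08) and 14.5-fold in Ki67-positive repopulation (3.86, SE 0.217, edgeR adjusted p = 1.63e-08). Against PND8 it rose 13.4-fold in Ki67-negative cells (edgeR adjusted p = 3.04e-08) and 16.2-fold in Ki67-positive cells (edgeR adjusted p = 2.08e-08). PND8 against adult gave log2 fold changes of -0.16 for both Ki67 states (SE 0.268 and 0.271), which did not pass. Within the 1 header code that holds both PND8 and repopulation libraries, Cfp stood at 6.60 and 4.36 TPM in PND8 and at 68.5 and 79.1 TPM in repopulation. The summed markers of monocytes and neutrophils were 5.9 to 9.37 CPM in repopulation, of which Ccr2 gave 5.33 to 8.85, and 18.5 to 250 CPM elsewhere. Astrocyte markers summed to 410 to 567 CPM in repopulation, 240 and 248 in adult and 61.1 to 430 at PND8. Slc1a3 made up most of this sum, with means of 519 and 405 CPM in Ki67-negative and Ki67-positive repopulation and 238 in adult. Of 7 astrocyte markers tested, 1 was higher and 0 lower than adult in each repopulation group. Against PND8, 1 was higher and 2 were lower for both Ki67 states. The part of other cells in the level of Cfp was not tested.

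C3, the protein on which all complement pathways converge, was low in RNA throughout and followed another pattern. Its level was 2.91 and 1.51 TPM in adult, 2.58 and 6.42 in PND8 Ki67-negative, 6.61 and 9.06 in PND8 Ki67-positive, 1.41 and 1.39 in Ki67-negative repopulation, and 0.951 and 0.519 in Ki67-positive repopulation. Both PND8 Ki67-positive libraries were the highest of all 10, both Ki67-positive repopulation libraries the lowest, and the PND8 Ki67-negative and adult ranges overlapped. The counts ran from 13 in Ki67-positive repopulation replicate 2 to 267 in PND8 Ki67-positive replicate 2. C3 rose 3.54-fold from adult to PND8 Ki67-positive cells (log2 fold change 1.82, SE 0.385, edgeR adjusted p = 0.00155). Between PND8 and repopulation, Ki67-positive cells differed by 9.91-fold, lower in repopulation (log2 fold change -3.31, SE 0.447, edgeR adjusted p = 9.39e-05). Both of these passed in every alternative run, leaving out each library included.

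The other changes of C3 hung on single libraries. In PND8 Ki67-negative cells C3 rose 2.08-fold over adult (log2 fold change 1.05, SE 0.391, edgeR adjusted p = 0.0404). Without PND8 Ki67-negative replicate 2 that log2 fold change was 0.22 (edgeR adjusted p = 0.671), and without adult replicate 2 it was 0.66 (edgeR adjusted p = 0.278). With only the 2 groups in the fit the value was 1.03 (edgeR adjusted p = 0.104). In Ki67-positive repopulation C3 fell 2.80-fold from adult (-1.49, SE 0.489, edgeR adjusted p = 0.0243), with -0.94 (edgeR adjusted p = 0.239) without adult replicate 1 and -1.16 (edgeR adjusted p = 0.149) without Ki67-positive repopulation replicate 2. In Ki67-negative repopulation against adult the value was -0.60 (SE 0.444, edgeR adjusted p = 0.311). C3 was lower in Ki67-negative repopulation than in PND8 Ki67-negative cells by 1.65 on the log2 scale (SE 0.415, edgeR adjusted p = 0.00728 for a value of -1.65), and without PND8 Ki67-negative replicate 2 the value was -0.82 (edgeR adjusted p = 0.131). Without Ki67-negative repopulation replicate 1 it was -1.63 (edgeR adjusted p = 0.0583).

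Markers of several other cell types moved along with C3 in some comparisons. Of 8 border macrophage markers tested, 7 rose and none fell from adult to PND8 Ki67-negative cells, 3 rose and none fell from adult to PND8 Ki67-positive cells, and all 8 were lower in repopulation than in PND8 for both Ki67 states. Their summed level thus moved in the direction of C3, with Lyve1 and Clec4n at 0 counts in all 4 repopulation libraries. Within PND8 the order was not the same: in Ki67-negative cells the sum was 794 CPM in replicate 1 and 611 in replicate 2, whereas C3 was lower in replicate 1. Mrc1, most of the sum, averaged 626 CPM in Ki67-negative and 824 in Ki67-positive PND8 cells. Every other border macrophage marker averaged lower in the Ki67-positive cells, where mean C3 was higher, such as Lyve1 (19.9 and 4.76 CPM). Of the 8, edgeR's test called 0 higher and 1 lower in Ki67-positive cells. Astrocyte markers followed C3 within PND8 only between the replicates of each Ki67 state. Their sum was 97.1 and 430 CPM in Ki67-negative replicates 1 and 2 and 61.1 and 376 CPM in the Ki67-positive ones, mostly from Slc1a3. Across the Ki67 states they did not: Ki67-positive replicate 1 had the lowest of these sums but more C3 than either Ki67-negative library. In repopulation, where C3 was low, the sum was 410 to 567 CPM. All 5 erythroid markers were higher at PND8 than in adult and lower in repopulation than at PND8 for both Ki67 states, with sums of 23.1 to 75.4 CPM at PND8, 0.463 and 7.21 in adult and 0.416 to 1.37 in repopulation. Adult replicate 1, with the higher C3, also had the higher sum of monocyte and neutrophil markers. Of 8 tested, 1 was higher and 7 were lower at PND8 than in adult for both Ki67 states, where mean C3 was higher. In repopulation, where mean C3 was lower than in adult, 0 were higher. There 6 were lower than adult in Ki67-negative and 7 in Ki67-positive cells. The part of other cells in the level of C3 was not tested.

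C3ar1 and C5ar1 encode the receptors of the C3a and C5a fragments. Both had their highest group mean in adult cells and were lower by less than 2-fold in every other group. C3ar1 stood at 133 and 138 TPM in adult, 94.9 and 109 in PND8 Ki67-negative, 116 and 136 in PND8 Ki67-positive, 113 and 109 in Ki67-negative repopulation, and 99.4 and 93.0 in Ki67-positive repopulation. The adult range overlapped that of PND8 Ki67-positive cells and lay above the other 3. C5ar1 stood at 96.7 and 95.3 TPM in adult, 52.1 and 69.9 in PND8 Ki67-negative, 47.9 and 55.7 in PND8 Ki67-positive, 79.0 and 92.7 in Ki67-negative repopulation, and 60.3 and 63.5 in Ki67-positive repopulation. Its adult libraries lay above all others, Ki67-negative repopulation came next without overlap, and the remaining 3 groups overlapped their neighbours in the order.

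C3ar1 fell from adult by 0.39 on the log2 scale in PND8 Ki67-negative cells (-0.39, SE 0.0935, edgeR adjusted p = 0.00421) and by 0.41 in Ki67-positive repopulation (-0.41, SE 0.0939, edgeR adjusted p = 0.00291). In PND8 Ki67-positive cells the value was -0.09 (edgeR adjusted p = 0.426) and in Ki67-negative repopulation -0.21 (edgeR adjusted p = 0.0869). C3ar1 was also lower in Ki67-positive repopulation than in PND8 Ki67-positive cells (-0.32, SE 0.0938, edgeR adjusted p = 0.0194). That last call was lost without PND8 Ki67-positive replicate 2 (-0.22, edgeR adjusted p = 0.174) and without either Ki67-positive repopulation library (-0.38 with an edgeR adjusted p of 0.0533 without replicate 1, -0.29 with 0.118 without replicate 2).

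C5ar1 fell from adult in 3 groups: by 1.84-fold in PND8 Ki67-positive cells (log2 fold change -0.88, SE 0.134, edgeR adjusted p = 0.000124), 1.55-fold in PND8 Ki67-negative cells (-0.63, SE 0.132, edgeR adjusted p = 0.0016) and 1.47-fold in Ki67-positive repopulation (-0.56, SE 0.133, edgeR adjusted p = 0.00395). These 3 passed in every alternative run. In Ki67-negative repopulation its level was not distinguished from adult (-0.09, SE 0.131, edgeR adjusted p = 0.606). C5ar1 was 1.45-fold higher in Ki67-negative repopulation than in PND8 Ki67-negative cells (0.54, SE 0.133, edgeR adjusted p = 0.00637). Without Ki67-negative repopulation replicate 2 this was 0.39 (edgeR adjusted p = 0.0704), and after adding the header code to the fit it was 0.29 (edgeR adjusted p = 0.0152). In Ki67-positive cells repopulation against PND8 gave 0.32 (SE 0.135, edgeR adjusted p = 0.0898), and the header code in the fit brought it to 0.07 (edgeR adjusted p = 0.615). C5ar2, the neighbouring receptor gene 2591 bp away and named after its values were seen, was lower than in adult in all 4 groups, with log2 fold changes from -1.08 to -0.77.

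C1qa, C1qb and C1qc encode chains that assemble in equal numbers into C1q. As counted, their RNA levels were close. The limit of 3 tags per position, described below, can also bring short abundant transcripts close together, and its part in this was not tested. C1qa stood at 643 and 645 TPM in adult, 627 and 536 in PND8 Ki67-negative, 597 and 558 in PND8 Ki67-positive, 536 and 649 in Ki67-negative repopulation, and 551 and 616 in Ki67-positive repopulation. C1qb ran from 573 to 701 TPM and C1qc from 614 to 749 TPM, and for every C1q gene the neighbouring groups in the order of means overlapped. The log2 fold changes of the 3 genes ran from -0.15 to 0.13 over the 8 comparisons between groups, and none passed the test. With only the 2 groups in the fit, C1qa passed in PND8 Ki67-positive cells against adult (-0.14, edgeR adjusted p = 0.025). Over the 10 libraries the log2 CPM of the pairs correlated with r of 0.946 to 0.973, a description over libraries that share depth and counting.

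These levels were read through a limit of the counting. Per the file headers, at most 3 tags were counted per position, and C1q transcripts are short and abundant. Divided by their exon lengths (1077, 1099 and 1049 bases for C1qa, C1qb and C1qc), their counts came to 3.03 to 3.9, 3.24 to 4.17 and 3.43 to 4.53 per base, which ranked between 4 and 15 of all genes in each library. C3ar1 reached 0.792, C5ar1 0.54, Cfp 0.48 and C3 0.0524 counts per base. A library held 12 to 22 genes above 3 counts per base, and 1 gene exceeded 6 in adult, so whether the limit applied per strand was not settled. The C1q values are therefore lower limits of level where the limit was reached, and differences between groups can be understated.

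In the 3 groups whose libraries differed most in depth, ratios between replicates set the C1q genes apart from genes with fewer counts per base. PND8 Ki67-negative replicate 2 held 1.28 times the counts of replicate 1, and its genes of 100 to 500 counts were a median 1.45 times higher, but C1qa, C1qb and C1qc were 1.13 to 1.18 times higher. In Ki67-negative repopulation the library ratio was 0.703 and that of genes of 100 to 500 counts 0.679, whereas the C1q genes gave 0.85 to 0.87. In Ki67-positive repopulation the corresponding ratios were 0.81, 0.81 and 0.883 to 0.919. In these groups the median ratio over all genes moved the same way with counts per base: in Ki67-negative repopulation it went from 0.679 at 0.1 to 0.5 counts per base to 0.844 at 2 or more, and in PND8 Ki67-negative cells from 1.38 to 1.16. The other 2 groups had libraries of near equal depth, with ratios of 0.95 in adult and 0.965 in PND8 Ki67-positive cells. Their C1q ratios were 0.953 to 0.977 and 0.897 to 0.94, and the latter lay further from 1 than the library ratio. The flat C1q levels across groups thus do not show that C1q RNA was equal in them.

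**Figure D3:**
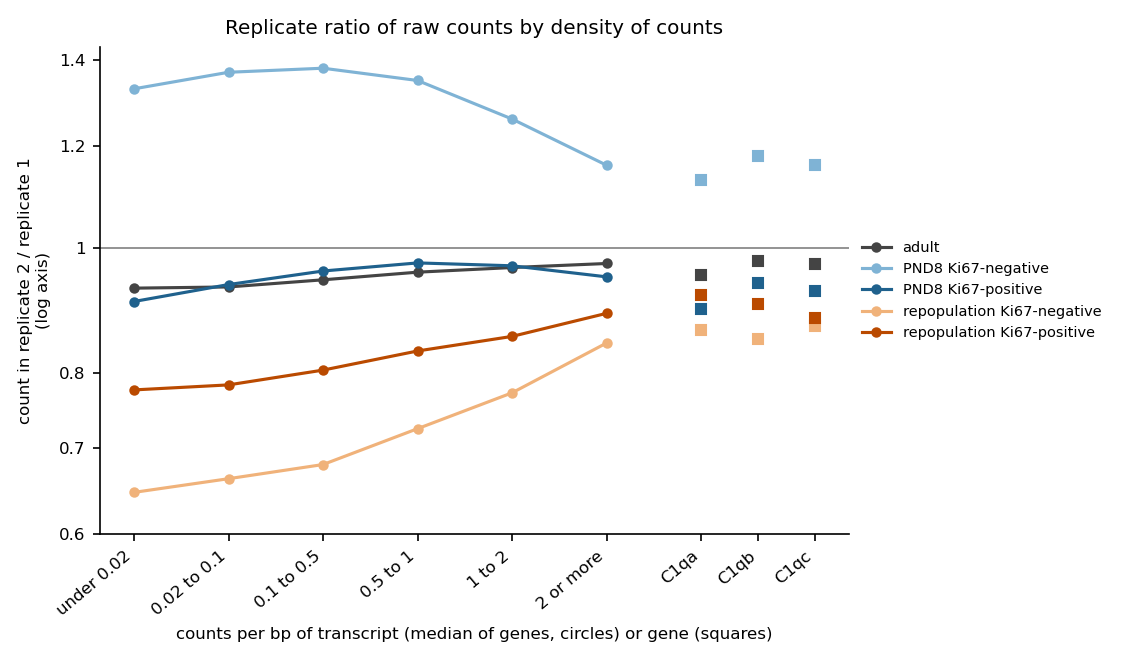
Median ratio of counts in replicate 2 over replicate 1, on a log axis, by counts per base of transcript (circles), for each RNA group, with the C1q genes as squares at their own ratios. In the 3 groups with unequal libraries the ratio lies nearer 1 at 2 or more counts per base than at 0.1 to 0.5. At 2 or more it is 0.844 in Ki67-negative repopulation and 1.16 in PND8 Ki67-negative cells. Between the same bins it goes from 0.945 to 0.973 in adult and from 0.96 to 0.95 in PND8 Ki67-positive cells.

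Sorting by Ki67 gave no change in these genes that passed edgeR's test in the fit over the 5 groups, which holds no header code. Alternative runs that called some of them are given with each contrast and in the closing section. Ki67-negative and Ki67-positive libraries of the same replicate number shared a header code, so the fit with that code is given beside each contrast. Of the 7 genes, 0 passed in PND8 Ki67-positive against Ki67-negative cells (edgeR), beside 5.90% of all tested genes, while C3 and C3ar1 had an unadjusted p under 0.05, DESeq2 called 1 and limma on TPM called 0. In PND8 the C3 value was 0.77 (SE 0.356, edgeR adjusted p = 0.253) and the C3ar1 value 0.29 (SE 0.0935, edgeR adjusted p = 0.0865). Without PND8 Ki67-negative replicate 2, C3 differed by 1.60 on the log2 scale and passed, as did C3ar1 at 0.41. In the fit that includes this code, C3 (0.85, edgeR adjusted p = 0.026), C3ar1 (0.29, edgeR adjusted p = 0.00669) and C5ar1 (-0.24, edgeR adjusted p = 0.0482) passed. The 5.90% of all genes belongs to the fit without this code, so these calls are not a result about the set.

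In repopulation 0 of 7 passed between Ki67-positive and Ki67-negative cells (edgeR), beside 2.74% of all tested genes, while C5ar1 had an unadjusted p under 0.05, DESeq2 called 1 and limma called 0. C5ar1 had the value -0.46 (SE 0.133, edgeR adjusted p = 0.0903), and it passed once this code entered the fit, also at -0.46 (edgeR adjusted p = 0.000592). Cfp differed by 0.28 (SE 0.172, edgeR adjusted p = 0.476) and C3 by -0.89 (SE 0.518, edgeR adjusted p = 0.442). The difference of the Ki67 differences, repopulation minus PND8, was tested as an interaction: 0 of 7 and 0% of all tested genes passed (edgeR), with C3 and C3ar1 at an unadjusted p under 0.05, and 0 by DESeq2 and 0 by limma. The interaction value was -1.66 for C3 (SE 0.628, edgeR adjusted p = 0.96) and -0.49 for C3ar1 (SE 0.133, edgeR adjusted p = 0.96).

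At the chromatin level the 7 genes fell into 3 patterns. H3K27ac regions were called by the authors in each library, so presence, covered length and the authors' signal (tags per 10000000 of the library) are described without a test. C1qa, C1qb, C1qc, C3ar1 and C5ar1 had a region within 1 kb of the start site in 12 of 12 libraries, Cfp in 8 and C3 in 2. Counting genes with a region in both libraries of a group, 5 of 7 had one in adult, beside 40.8% of all genes. In PND8 the count was 6 of 7 in Ki67-negative (beside 48.1%) and 6 of 7 in Ki67-positive cells (beside 49.2%). In cuprizone it was 5 of 7 in Ki67-negative (beside 43.8%) and 7 of 7 in Ki67-positive cells (beside 45.8%), and in Ki67-positive repopulation 6 of 7 (beside 47.2%). With windows of 10 kb the counts of the 7 were the same, beside 47.7% of all genes in adult, 55.3% and 56.6% in Ki67-negative and Ki67-positive PND8, 51.1% and 52.9% in the corresponding cuprizone groups and 54.4% in repopulation.

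**Figure D4:**
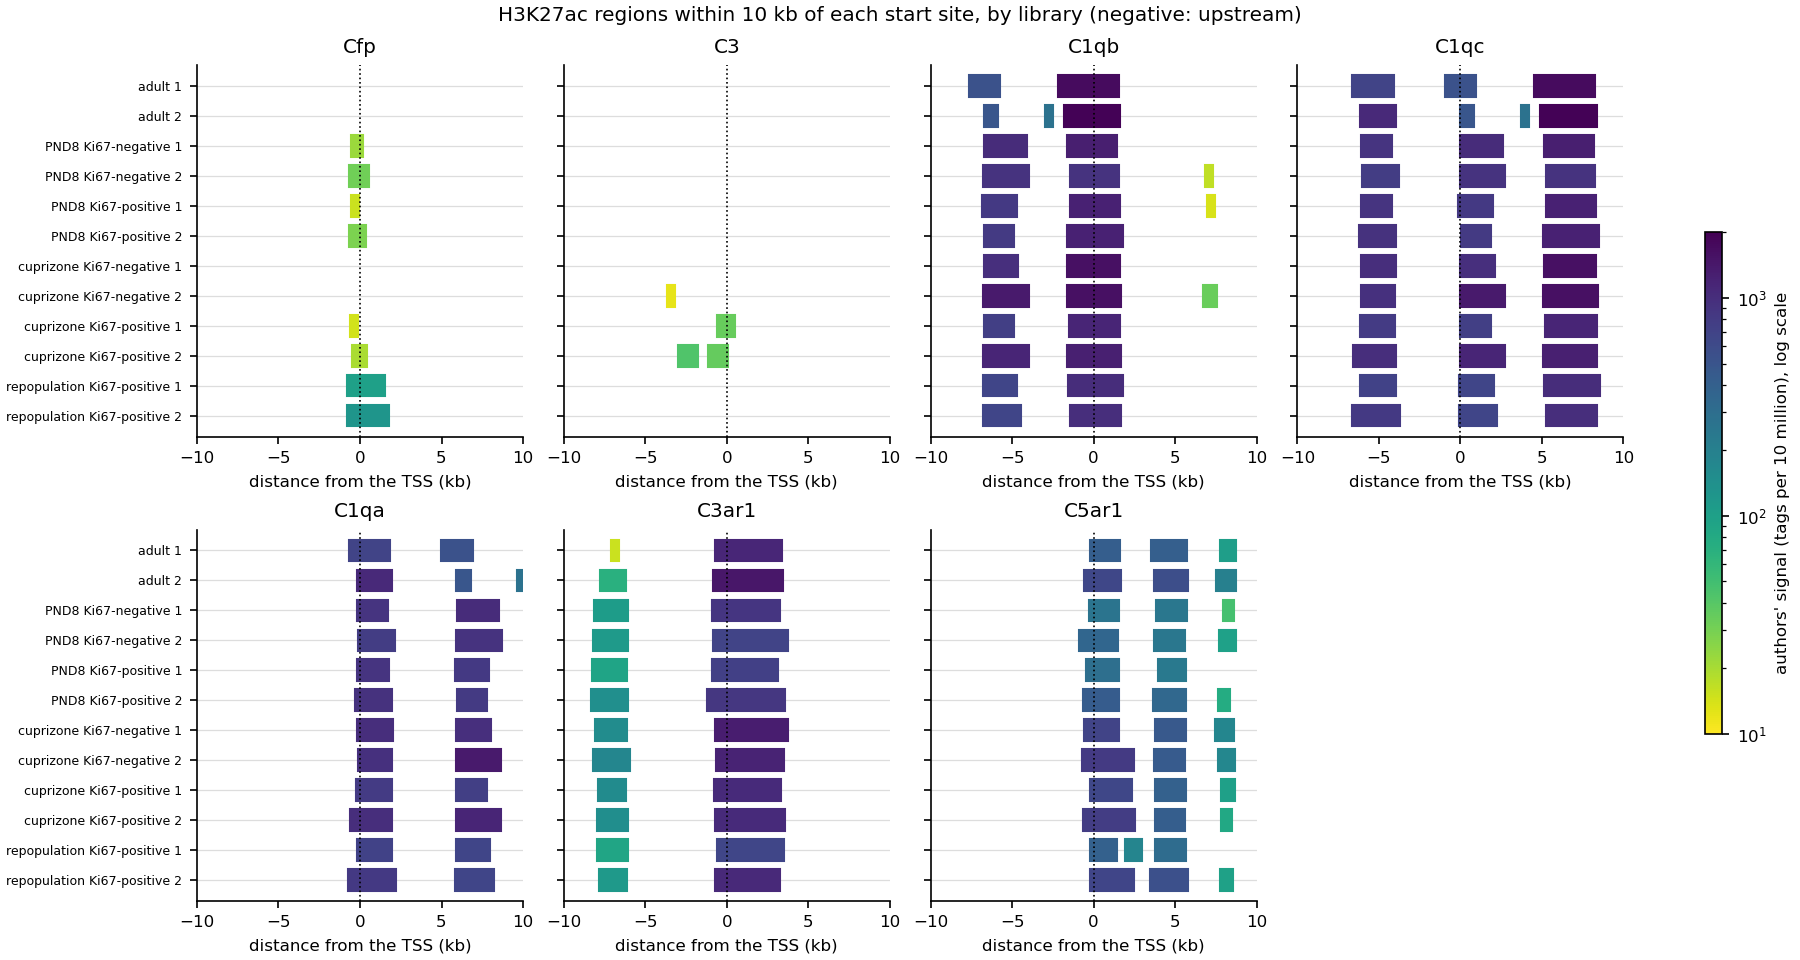
H3K27ac regions within 10 kb of each start site (horizontal axis, distance in kb, upstream negative) in each of the 12 libraries (rows), drawn to scale and coloured by the authors' signal on a log scale. Cfp has no region in the adult and cuprizone Ki67-negative libraries and its widest and highest ones in repopulation, with signals of 100.4 and 125.4, and at the start of C3 only the 2 cuprizone Ki67-positive libraries have one.

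Cfp had H3K27ac regions in PND8, cuprizone Ki67-positive and repopulation cells. No region lay within 10 kb of its start in the adult or cuprizone Ki67-negative libraries. In PND8 the regions were narrow: 731 and 1218 bp with signals of 22.4 and 31.3 in Ki67-negative cells, and 501 and 1018 bp with 15.2 and 28.4 in Ki67-positive cells. Cuprizone Ki67-positive cells had regions of 501 and 931 bp with signals of 14.4 and 19.5. Ranked by signal, the PND8 regions lay 78.2% to 91.9% down their lists and the cuprizone ones 96.95% and 90.7%, among the weakest called. Those of repopulation lay 49.4% and 53.2% down. The adult lists held 19572 and 24903 regions, against 24082 to 30539 in the other groups, and the part of list length was not tested. In Ki67-positive repopulation the regions were 2335 and 2543 bp long, with signals of 100.4 and 125.4, and reached from 825 bp before to 1509 bp after the start in replicate 1 and from 792 bp before to 1750 bp after it in replicate 2. Repopulation libraries thus had the widest regions and the highest signals of the 8 libraries with a region. The signal counts tags over the whole region, so it grows with width.

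The presence of Cfp regions held within header codes. In the code shared by adult replicate 2, the PND8 replicates 2 and repopulation replicate 1, adult had none, PND8 had 31.3 and 28.4 and repopulation 100.4. In each of the 2 codes with cuprizone libraries, the Ki67-positive one had a region and the Ki67-negative one had none. Of all genes, 2.89% had a region within 1 kb in both repopulation libraries and neither adult one, and 0.414% had one in both cuprizone Ki67-positive and neither Ki67-negative library, a set that held Cfp and C3. Fold over input, which the authors required to be at least 4, was 13.82 and 5.35 in repopulation and 7.02 to 51.29 in the other 6 libraries, so at a fold of at least 8 repopulation replicate 2 and PND8 Ki67-negative replicate 1 lost their regions. RNA and the presence of a region were not parallel. PND8 cells had regions within 1 kb of the start of Cfp, while their RNA was within the adult range or below it. Those regions were among the weakest called, and that of PND8 Ki67-positive replicate 1 lay 579 to 79 bp before the start.

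C3 had H3K27ac within 1 kb in cuprizone Ki67-positive cells only. The regions there were 1071 bp with a signal of 34.1, from 586 bp before to 484 bp after the start, and 1248 bp with 35.3, from 1149 bp before to 98 bp after it. Replicate 2 had a further region of 1215 bp with a signal of 43.2, which lay 2979 to 1765 bp before the start, and the Ki67-negative replicate 2 had 1 of 501 bp with 12.1 at 3665 to 3165 bp before it. No C3 region lay within 10 kb in adult, PND8 or repopulation, the PND8 libraries with the highest C3 RNA included. Both of the regions at the start fell below a fold over input of 8, with 4.53 and 6.28. Of all genes, 0.357% had a region in both cuprizone Ki67-positive and neither PND8 Ki67-positive library, and 0.205% in both and neither repopulation library.

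The other 5 genes carried strong H3K27ac in every library. The region nearest the start of C1qb had signals from 915 to 1956 and ranked among the highest 0.097% to 1.93% of each list. The 2 adult libraries had the highest C1qb signals, 1729 and 1956, against 915 to 1621 in the other 10. At C1qc the adult libraries had the lowest, 523 and 485.4, against 669.2 to 1404 in the others, so the neighbouring C1q start sites ordered the groups differently. The signal counts tags over the whole called region, and the regions differed in length. At C1qb they were 3773 and 3468 bp in adult and 3019 to 3444 bp in the others. At C1qc they were 1917 and 879 bp in adult and 1853 to 2796 bp in the others. The part of length in this order was not tested. The ranges over all libraries were 688.6 to 1085 for C1qa, 485.4 to 1404 for C1qc and 660.8 to 1451 for C3ar1. The 10 kb windows of the C1q genes overlap, so their regions are not independent. C5ar1 had signals of 258.2 and 354.1 in PND8 Ki67-negative, 293 and 438.5 in PND8 Ki67-positive, 417.2 and 643.4 in adult, 395.6 and 672.2 in repopulation, 682.1 and 818.5 in cuprizone Ki67-negative and 651.9 and 776.2 in cuprizone Ki67-positive cells. PND8 signals overlapped those of adult and repopulation and lay below those of cuprizone. The share of tags in regions ran from 32.60% in adult replicate 1 to 69.66% in cuprizone Ki67-negative replicate 2, and its part in these signals was not tested.

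The remaining marks came from mice labelled wild type; for the PND8 and repopulation ATAC-seq samples the titles name Ki67rfp instead. H3K4me3, a promoter mark, was mapped in adult cells of 75 days. Both libraries had a peak within 1 kb of the C1q genes, C3ar1 and C5ar1 (signals of 18.7 and 17.2 for C5ar1) and none at C3 or Cfp, beside 60.7% and 60.0% of all genes with one. Rpb2, a subunit of RNA polymerase II mapped in adult cells of 60 and 65 days, had peaks at the C1q genes and C3ar1 in both adult libraries, at C5ar1 in replicate 1 only (48.6), and none at C3 or Cfp, beside 36.0% and 30.6% of all genes. The PND8 Ki67-positive Rpb2 library (48.4% of all genes) had peaks at the C1q genes, C3ar1 and C5ar1 (19) and 2 at Cfp (16.8 and 12.3), and none at C3.

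Open chromatin by ATAC-seq, with 1 library a group, was present at Cfp in all 3. Its 2 peaks had signals of 77.9 and 61.4 in adult cells of 80 days, 66.4 and 62.4 in PND8 Ki67-positive cells, and 82.7 and 81.5 in Ki67-positive repopulation of 75 days. The start of Cfp was thus called open in adult cells, which had no H3K27ac region there. Within 1 kb, C3 had a peak of 17.6 at PND8 and of 12.8 in repopulation and none in adult, where 3 peaks of 25.5, 15 and 12 lay further out within 10 kb. C5ar1 had one of 73.4 in adult and 47.8 in repopulation and none within 1 kb at PND8. The C1q genes and C3ar1 had peaks in all 3 libraries, beside 56.0%, 58.4% and 60.8% of all genes in adult, PND8 and repopulation.

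The wider complement pathway was followed with a list of 56 genes by role, the 7 included, of which 30 passed the filter and 21 had at most 3 counts in every library. Against adult, 8 of the 30 rose and 9 fell in PND8 Ki67-negative cells, where 46.8% of all tested genes changed (median log2 fold change -0.07, beside 0.03 over all genes). In PND8 Ki67-positive cells 5 rose and 10 fell, beside 49.5% of all genes (-0.14, beside 0.00). In Ki67-negative repopulation 9 rose and 4 fell, beside 39.2% (-0.01, beside -0.01), and in Ki67-positive repopulation 6 rose and 7 fell, beside 44.9% (0.01, beside -0.01). Repopulation against PND8 gave 9 higher and 5 lower in Ki67-negative cells, beside 36.6% (0.15, beside -0.04), and 7 higher and 5 lower in Ki67-positive cells, beside 30.9% (0.25, beside 0.00). These counts are a description of the list and were not tested against other genes.

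Genes outside the 7 are given by role, at most the 4 with the largest change in a comparison. Cfb, which supplies the catalytic part of the enzyme that properdin holds together, rose from adult in all 4 groups, with log2 fold changes of 3.64 (SE 0.38) and 3.32 (SE 0.388) in Ki67-negative and Ki67-positive PND8 cells and 3.74 (SE 0.382) and 2.74 (SE 0.406) in the corresponding repopulation groups. Its counts were 16 and 8 in adult, 103 to 248 at PND8 and 71 to 189 in repopulation. C2, the Cfb counterpart of the classical pathway, rose at PND8 (4.75, SE 0.499, and 4.10, SE 0.512), with 2 and 13 counts in adult, 130 to 308 at PND8 and 9 to 30 in repopulation. C1ra, a protease of the C1 complex, rose in Ki67-negative repopulation over adult (2.05, SE 0.339), with 21 and 31 counts in adult and 75 to 121 in repopulation.

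Masp1, a protease of the lectin pathway, had 93 and 113 counts in adult, 17 to 36 at PND8 and 292 to 490 in repopulation, where it was higher than at PND8 by 4.14 (SE 0.207) and 3.39 (SE 0.198) on the log2 scale. Fcna, a ficolin that starts the lectin pathway, had 4 and 6 counts in adult, 39 to 96 at PND8 and 0 to 3 in repopulation. Csmd3, a membrane protein with complement control domains, had 1977 and 2384 counts in adult, 8 to 38 at PND8 and 215 to 866 in repopulation. Its log2 fold change from adult was -6.04 (SE 0.234) and -7.51 (SE 0.272) in Ki67-negative and Ki67-positive PND8 cells and -2.74 (SE 0.18) in Ki67-positive repopulation, all past the test. Clu, a soluble regulator, had 18 and 19 counts in adult, 14 to 146 at PND8 and 1 to 4 in repopulation.

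**Figure D5:**
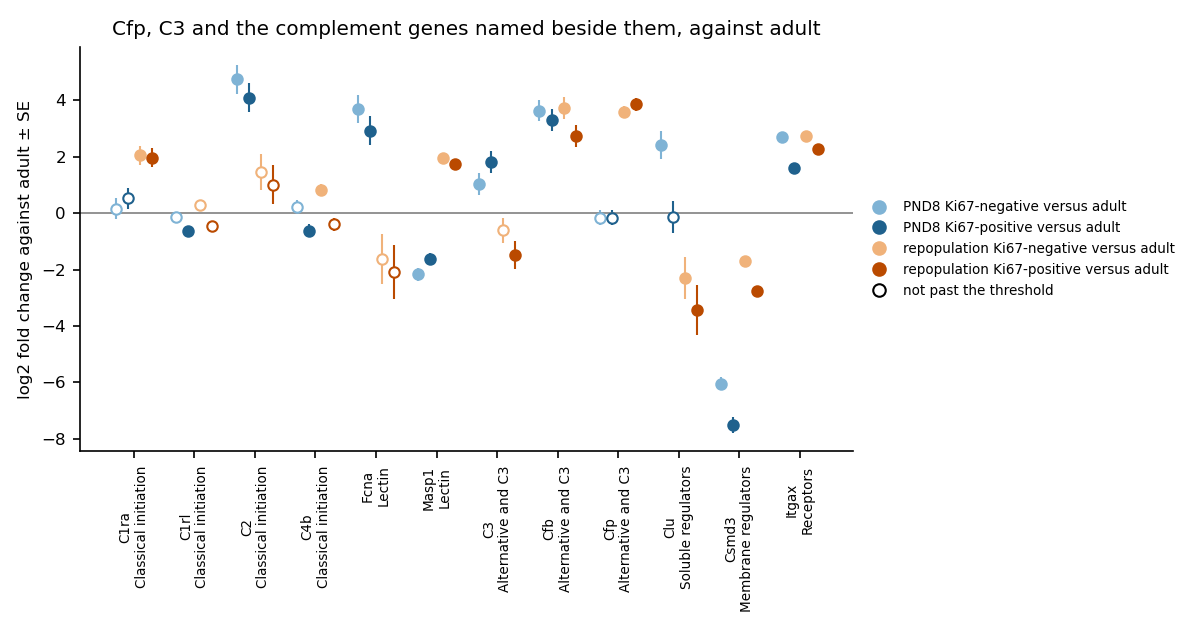
Fitted log2 fold change against adult, with bars of 1 standard error, of Cfp, C3 and the complement genes named beside them, arranged by role, with filled points at an adjusted p under 0.05. Cfb is higher than adult in all 4 groups, with 2.74 to 3.74, and Cfp in repopulation only; Fcna and Clu rest on at most 4 counts in each repopulation library.

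Itgax, a subunit of complement receptor 4, rose from adult in all 4 groups. Its counts were 247 and 210 in adult, 1118 and 2293 in PND8 Ki67-negative, 713 and 753 in PND8 Ki67-positive, and 902 to 1669 in repopulation, so no library of the 4 groups overlapped adult. The log2 fold change was 2.74 (SE 0.168) in Ki67-negative and 2.27 (SE 0.168) in Ki67-positive repopulation. In Ki67-positive against Ki67-negative cells, 3 of the 30 fell and none rose in PND8, where 5.90% of all tested genes changed (median -0.08, beside -0.03 over all genes): Clu (-2.55, SE 0.498), Itgax (-1.08, SE 0.151) and C4b (-0.85, SE 0.234). In repopulation 3 fell and none rose, beside 2.74% of all genes (median -0.16, beside 0.00): C4b (-1.22, SE 0.231), Csmd3 (-1.05, SE 0.18) and C1rl (-0.76, SE 0.178). Reads of C4b and its near-identical copy C4a may be split between them, so its values are uncertain.

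The genes whose log2 CPM most resembled each complement gene over the 10 libraries were searched among 9607 genes with a mean of at least 10 CPM. Among those for Cfp was Adar (r = 0.99). For C3 they were Renbp (r = 0.96) and Hmox1 (r = 0.943), for C3ar1 Fn3krp (r = 0.898) and Lonrf3 (r = 0.868), and for C5ar1 Stk38l and Tctn1 (both r = 0.936). C1qa was most like C1qc and C1qb, and C1qb and C1qc were each most like the other and then Ptgs1 (r = 0.967 and 0.964). These are descriptions over 5 groups of 2 that share depth and counting, and many genes that differ between the groups would give a high r.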

How the data were processed

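The 10 RNA libraries were deposited as counts and as TPM, and the peak lists as regions with a signal, a score and a fold. Per the file headers, the authors made the counts with HOMER over exons of 1 mm10 transcript per gene, with at most 3 tags per position, and the deposited TPM values came from the same tool. For 4532 genes, C5ar1 among them, the TPM row names another transcript. Per the file headers, the authors called peaks in each library separately, H3K27ac with at least 4 times the input; the signal is tags per 10000000, the score is HOMER's own, not used here, and the fold ratio is over input. The submitters' processing notes name STAR 2.7.0f, Bowtie2 2.3.4.1, HOMER 4.11 and DESeq2. The labels call the libraries polyA-selected and stranded (dUTP); the strand setting of the counting is not given in the sources used here.

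The count model was fitted in edgeR 4.0.16 (R 4.3.3), with TMM scaling, filterByExpr by group (12230 genes), 1 quasi-likelihood fit over the 5 groups of 2, and 9 comparisons, each adjusted by Benjamini-Hochberg at 0.05. The common biological coefficient of variation was 0.0957. The code was tested on simulated data. Alternatives were DESeq2 1.42.0, RLE scaling, library sizes only, no filter, only the groups compared, limma 3.58.1 on log2(TPM + 1) and log2(TPM + 0.1), a replicate block, the header code as a term, and leaving out each library. All 7 genes were named in each comparison, and of the list of 56 the 4 with the largest change past the threshold. One gene that the rule on likeness names is not reported here. Members and lists were chosen with earlier results of these data known.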

Additional observations from a re-analysis of the deposited data

How the results depend on the processing

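Of 539 log2 fold changes of the 7 genes recomputed with all libraries, 484 kept their direction and side of the threshold, 22 passed newly, 4 no longer passed and 29 changed sign. Leaving out 1 library gave 219 of 280 unchanged, 4 newly passing, 10 no longer passing and 47 of the other sign. No value that changed sign had passed the test. With all libraries, the number of the 7 that passed moved by 1 gene under some alternative in 4 comparisons (PND8 Ki67-negative against adult 3 to 2, PND8 Ki67-positive against adult 2 to 3, Ki67-positive repopulation against adult 4 to 3 and against PND8 3 to 4) and by more than 1.5 times in another 4. PND8 Ki67-positive against Ki67-negative went from 0 to 1 with DESeq2 or the replicate block, 2 without a filter, 3 with the header code, and 0 to 2 leaving out 1 library. The same contrast in repopulation went from 0 to 1 with DESeq2, no filter, the replicate block or the header code. Ki67-negative repopulation against adult went from 1 to 2 with library sizes only, only the groups compared or limma at either pseudocount. The difference of the Ki67 differences went from 0 to 2 without a filter and to 1 with the header code. The shares of all tested genes given above belong to the fit without these alternatives, so these counts are not a result about the set. The causes were not tested.

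Sign changes lay near 0. In PND8 by Ki67, Cfp had -0.01 with library sizes only and 0.00 with the header code, and C1qa, C1qb and C1qc had 0.01 with only the groups compared. With library sizes only, C1qc had 0.00 in repopulation by Ki67. Against adult, C1qb and C1qc had -0.01 and -0.01 (Ki67-negative) and -0.02 and -0.01 (Ki67-positive) in repopulation, and limma gave -0.04, -0.05, -0.07 and -0.06. Against PND8 Ki67-negative, C1qa had -0.01 and C1qc 0.00 with library sizes only. In the difference of Ki67 differences, C1qa and C1qc had -0.02 with DESeq2 and with RLE and -0.01 with limma, and C1qb had 0.01 with library sizes only.

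Leaving out 1 library gave the following ranges where a sign changed. In PND8 by Ki67 they were -0.12 to 0.11 (C1qa), -0.09 to 0.08 (C1qb), -0.09 to 0.09 (C1qc) and -0.34 to 0.35 (Cfp). In repopulation by Ki67 they were -0.18 to 0.16, -0.18 to 0.13 and -0.18 to 0.17 for the C1q genes. In PND8 against adult they were -0.50 to 0.05 (Cfp) and -0.16 to 0.03 (C1qc) for Ki67-negative, and -0.54 to 0.14 (Cfp) and -0.21 to 0.03 (C3ar1) for Ki67-positive cells. In Ki67-negative repopulation against adult they were -0.23 to 0.11, -0.12 to 0.19 and -0.15 to 0.20 for the C1q genes and -0.24 to 0.05 for C5ar1. In Ki67-positive repopulation against adult the C1q genes had -0.16 to 0.01, -0.08 to 0.07 and -0.05 to 0.07. Repopulation against PND8 gave them -0.09 to 0.24, -0.03 to 0.29 and -0.10 to 0.25 in Ki67-negative cells, and C1qa -0.01 to 0.16 in Ki67-positive cells. In the difference of Ki67 differences they were -0.16 to 0.18, -0.16 to 0.15 and -0.16 to 0.19, with -0.09 to 0.60 for Cfp.

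Same-numbered libraries had deviations from their group means correlated by 0.338 in PND8 and 0.263 in repopulation, and by -0.008 to 0.097 between other groups. The labels give only a number, but same-numbered Ki67-negative and Ki67-positive libraries of PND8 and of repopulation also share a header code. With the replicate block 3 values newly passed edgeR's test: C3ar1 in PND8 by Ki67 (0.29, adjusted p = 0.0456), C5ar1 in repopulation by Ki67 (-0.46, adjusted p = 0.00769) and C5ar1 in Ki67-positive repopulation against PND8 (0.33, adjusted p = 0.0156). With the header code as a term no adult comparison could be fitted. Asking regions to cover 50% of the 10 kb window left 0 of 7 in all 6 H3K27ac groups. The window runs 10 kb each side, and the most covered was 8685 bp (C1qc, cuprizone Ki67-positive replicate 2). Regions of this size could hardly meet the rule, and no share of all genes is given for it. The 0 of 7 is therefore not a result about these genes. With 2 libraries a group, 13 to 267 counts limit C3, and the counting limit per position bounds the C1q genes.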
